A study of Drosophila melanogaster with 15 samples.

Results

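Described here are 181 uncharacterised genes of *Drosophila melanogaster* whose transcripts were higher in sorted astrocytes 24 hr after traumatic brain injury (TBI) than in any uninjured sample, while not every sample at 4 hr was. The genes carry only a computed gene number of the form *CG* plus digits as their FlyBase symbol. Levels are given as TPM, a measure of transcript abundance that corrects for gene length and adds up to a fixed total in each sample. The genes were chosen by their own values: a TPM of 1 or more in 5 or more of 15 samples, a lowest 24 hr value above the highest uninjured value, and a lowest 4 hr value not above it. Of 8101 genes that reached this level, 2535 were CG genes, and 181 of those met the rule. The others were raised in the same sense at both times (52 genes), only at 4 hr (129 genes) or at neither time (2173 genes). As every sample took part in the choice, the differences between the groups below describe the genes and are not tests of them. A gene at 0 in other samples could reach the level through the 24 hr group alone, so that no statement here holds for CG genes below it.

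Each group had 5 samples: flies with no injury, flies 4 hr after TBI and flies 24 hr after TBI. All groups shared the genotype *R86E01-Gal4/UAS-Redstinger*, labelled WT, in which the Gal4 driver puts a red nuclear fluorescent protein into astrocytes, and all flies were collected 3 days after eclosion. TBI was given with the HIT device, in which a spring strikes the vial of flies against a pad. Strikes were repeated at intervals, a treatment that kills most flies within a day. Injured flies alive at dissection may thus be a selected part of those struck, and uninjured flies had no such selection. Flies were collected before the injury, so those of the later group were older at dissection than those of the earlier one. The part of survival and of age in the differences was not tested. About 50 brains for a group were pooled before dissociation, and 1600 fluorescent cells were sorted into each lysate. Cells that express the driver outside astrocytes would be sorted as well, and in a bulk sample fewer cells of a type and less RNA per cell cannot be told apart.

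Astrocytes of the adult fly brain send fine processes into the neuropil, where they take up transmitters and buffer ions, and they change shape and gene expression when the brain is wounded. The *CG* symbols come from the first annotation of the fly genome. A gene keeps such a symbol until a name is adopted for it, so the symbol says nothing about its role. For some of the 181 genes, the RefSeq gene table lists a synonym that points to a relative of known function, and these are described together below.

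The level of the 181 genes differed between samples of the same group. Their median TPM was 6.98 to 9.78 in the uninjured samples, 8.75 to 18.9 at 4 hr and 15.4 to 27.0 at 24 hr. Samples 1, 2 and 3 of each injury group held the high values: the medians were 18.9, 18.6 and 13.2 TPM at 4 hr in samples 1 to 3, with 8.75 and 10.1 TPM in samples 4 and 5. At 24 hr they were 27.0, 25.6 and 20.4 TPM in samples 1 to 3, with 15.4 and 16.5 TPM in samples 4 and 5. The same samples stood apart in the share of TPM that came from the mitochondrial genome, which was 17.2, 11.5 and 26.9% in samples 1 to 3 at 4 hr and 43.2 and 36.3% in samples 4 and 5. At 24 hr the share was 15.7, 15.2 and 19.6% in samples 1 to 3, with 37.2 and 33.4% in samples 4 and 5. It was 15.2 to 37.2% at 24 hr, against 32.7 to 51.8% in uninjured samples (exact two-sided permutation test, p = 0.0238, Benjamini-Hochberg adjusted p = 0.0714 over 27 tests, lower than every uninjured sample in 3 of 5 samples). The number of genes listed above 0 was 9075 to 10005 at 24 hr, against 8440 to 8737 in uninjured samples (exact permutation test, p = 0.00794, adjusted p = 0.0357, higher in 5 of 5 samples). With the mitochondrial share as a covariate in the fit described below, the median difference of the 181 genes from uninjured samples was 0.55 at 24 hr and 0.07 at 4 hr on the log2(TPM + 1) scale, with 0.17 and 0.04 over all genes tested. The mean share was 24.2% at 24 hr and 43.1% in uninjured samples, so this fit cannot tell the share apart from injury. The part of the mitochondrial share and that of the number of detected genes were not tested.

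**Figure D1:**
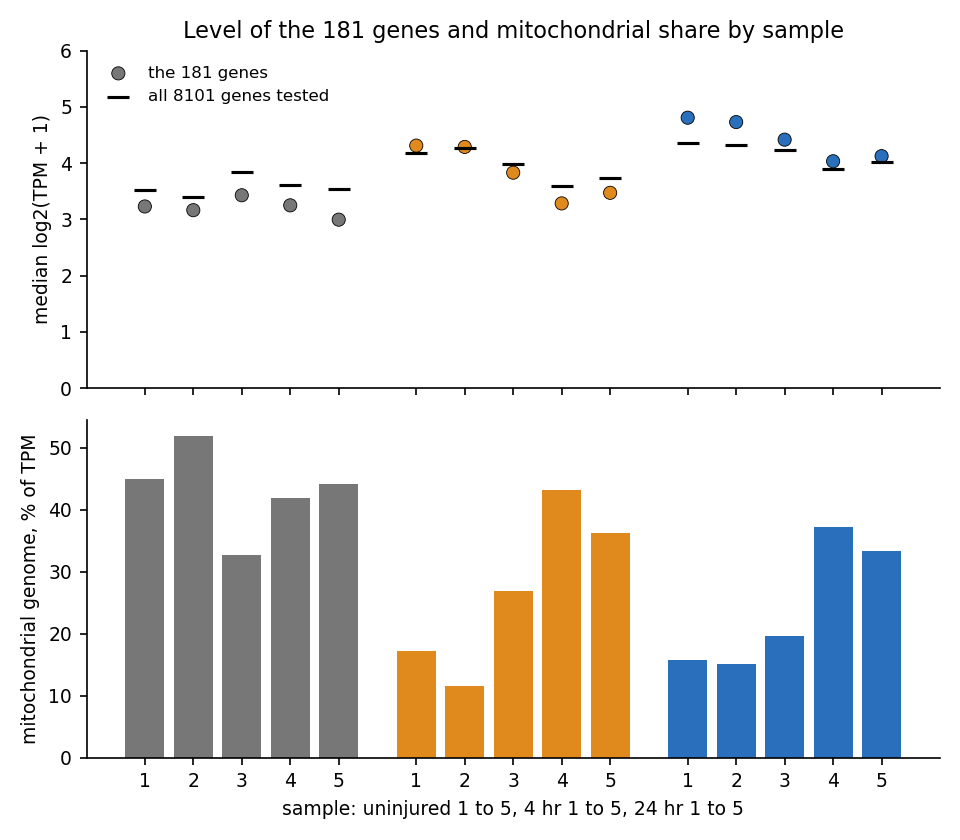
Top, median log2(TPM + 1) of the 181 genes (points) and of all 8101 genes tested (bars) in each of 15 samples; bottom, share of TPM from the mitochondrial genome in %. The medians of the 181 genes lie below those of all genes in the 5 uninjured samples and above them in the 5 samples at 24 hr, and in both injury groups samples 4 and 5 have the highest mitochondrial shares.

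The sorted cells carried the genes of astrocytes. The summed TPM of 8 astrocyte genes was 62326 to 84423 at 24 hr, against 50859 to 81051 in uninjured samples. Markers of some other cell types moved with the injury groups or with samples within them. The sum over 13 neuronal genes was 72.9 to 95.3 TPM in uninjured samples, 159.8 to 220.4 TPM at 4 hr and 86.6 to 264 TPM at 24 hr. It was higher than in every uninjured sample in 5 of 5 samples at 4 hr (exact permutation test, p = 0.00794, adjusted p = 0.0357) and in 4 of 5 at 24 hr (exact p = 0.0397, adjusted p = 0.0974), and 0 of 12 neuronal genes tested were above every uninjured sample at 24 hr. The cortex, surface and ensheathing glia lists were high in the injury samples in which the 181 genes were high, and so was the astrocyte list. Astrocyte genes summed to 75122, 74541 and 61674 TPM in 4 hr samples 1 to 3. In 4 hr samples 4 and 5 they summed to 53867 and 57454 TPM. At 24 hr the sums were 70428, 71555 and 84423 TPM in samples 1 to 3, with 62326 and 62894 TPM in samples 4 and 5. Cortex glia genes summed to 2866, 2771 and 1481 TPM in 24 hr samples 1 to 3 and 906 and 837 TPM in samples 4 and 5. In uninjured samples they summed to 379 to 898 TPM, and 1 of 4 genes was above every uninjured sample at 24 hr. Surface glia genes summed to 321, 359 and 316 TPM in 24 hr samples 1 to 3 and 169 and 174 TPM in samples 4 and 5, against 154 to 226 TPM in uninjured samples. Ensheathing glia genes summed to 54.9, 36.3 and 29.9 TPM in 24 hr samples 1 to 3 and 10.9 and 20.5 TPM in samples 4 and 5, against 4.81 to 13.9 TPM in uninjured samples. Of the surface glia genes, 0 of 3 tested were above every uninjured sample at 24 hr, and of the ensheathing glia genes 0 of 2. At 4 hr the lists of these other glia were highest in samples 1 and 2, as was the astrocyte list. They were at 2095 and 1674 TPM for cortex glia, 346 and 337 TPM for surface glia, and 28.3 and 27.2 TPM for ensheathing glia. Fat body genes were higher at 24 hr than at 4 hr in 5 of 5 samples: they summed to 20.6 to 42.4 TPM at 24 hr, against 10.09 to 16.3 TPM at 4 hr (exact permutation test, p = 0.00794, adjusted p = 0.0357). The 22 genes set apart from 4 hr below have this order by the way they were picked. In uninjured samples the fat body sum was 15.04 to 34.2 TPM, and *Yp1* was at 0 in all samples. The 4 hr sums were lower on average than the uninjured ones (exact permutation test, p = 0.0159, adjusted p = 0.0536). Genes of hemocytes summed to 0 to 0.19 TPM in uninjured samples, 0.17 to 1.27 TPM at 4 hr and 0 to 2.6 TPM at 24 hr, with *He* at 0 in all samples. Against uninjured samples, hemocyte genes gave p = 0.0159 at 4 hr and 0.0476 at 24 hr (exact permutation test, adjusted p = 0.0536 and 0.107). The 3 pan-glia genes summed to 2711 to 3848 TPM in uninjured samples, 2091 to 3245 TPM at 4 hr and 3164 to 4105 TPM at 24 hr. Photoreceptor genes summed to 64.8 to 131 TPM, 41.7 to 79.6 TPM and 77.3 to 118 TPM in these groups, and muscle genes to 0.52 to 5.5 TPM, 2.14 to 9.92 TPM and 1.6 to 6.29 TPM. For both lists 24 hr against uninjured gave p = 0.651 (exact permutation test, adjusted p = 0.732). Between 24 hr and 4 hr, p was 0.0317 for photoreceptor and 0.397 for muscle genes (exact permutation test, adjusted p = 0.0857 and 0.51). The part of other cell types in the levels of the 181 genes was not tested.

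Over the 181 genes, the median of the mean differences between 24 hr and uninjured samples was 1.24 on the log2(TPM + 1) scale (range, 0.36 to 2.92), against 0.51 over all genes tested. This scale understates the change of genes with few transcripts. All genes together shifted upwards at 24 hr in this table, so that 22.6% of all genes tested had a difference of at least 1, as did 125 of the 181 genes. A difference of at least 2 was found for 13 of the 181 genes and for 1.62% of all genes tested. Fitted with limma, 19 of the 181 genes were called higher at 24 hr (adjusted p below 0.01 and a log2 difference of at least 1), and 0 were called lower. Of all genes tested, 2.26% were called higher and 0.0617% lower. The rule used these same values, so the count is read no further. It depended on the samples, as did the share of all genes tested that were called. Without uninjured samples 1, 2 and 5 the count was 7, 4 and 7 genes (1.43, 1.05 and 1.37% of all genes tested). Without 4 hr samples 3 and 4 it was 12 and 41 genes (1.64 and 3.44%). Without 24 hr samples 1, 2 and 3 it was 3, 2 and 2 genes (0.839, 1.02 and 0.864%). Only *CG11425* and *CG5888* were called in all 15 fits that left out 1 sample. With the mitochondrial share as a covariate 0 of the 181 genes were called, and 0.333% of all genes tested were. As the share went with the groups, that fit cannot tell it apart from injury.

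At 4 hr the median difference from uninjured samples was 0.57 (range, -0.78 to 2.37), against 0.31 over all genes tested. The mean was above that of the uninjured samples for 165 genes and below it for 16 genes on the log2 scale, where 28.9% of all genes tested were below. It was at least 1 in 37 genes, and in 14.3% of all genes tested. With limma, 0 of the 181 genes were called higher at 4 hr, and 5.76% of all genes tested were. An unadjusted p below 0.05 was found for 67 of the 181 genes and for 2196 (27.1%) of all genes tested. The count of genes called at 4 hr was 10 and 4 without 4 hr samples 4 and 5, along with 6.8 and 5.64% of all genes tested. It was 1 without uninjured sample 1, 4 or 5 or 4 hr sample 1 (4.48 to 5.17% of all genes tested). Between the injury groups, 2 of the 181 genes, *CG5895* and *CG10514*, were called higher at 24 hr than at 4 hr, a call made for 0.42% of all genes tested. That count was 5 without 4 hr sample 1 (0.432% of all genes tested). It was 1 without any of 4 hr samples 3, 4 and 5 and 24 hr samples 1, 2 and 3 in turn (0.136 to 0.259%). The median difference between 24 hr and 4 hr was 0.62 over the 181 genes and 0.18 over all genes tested, and it was above 0 in 176 of the 181 genes and in 64.6% of all genes tested. Both injury groups were set against the same uninjured samples, so the differences at 4 hr and 24 hr share their errors.

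**Figure D2:**
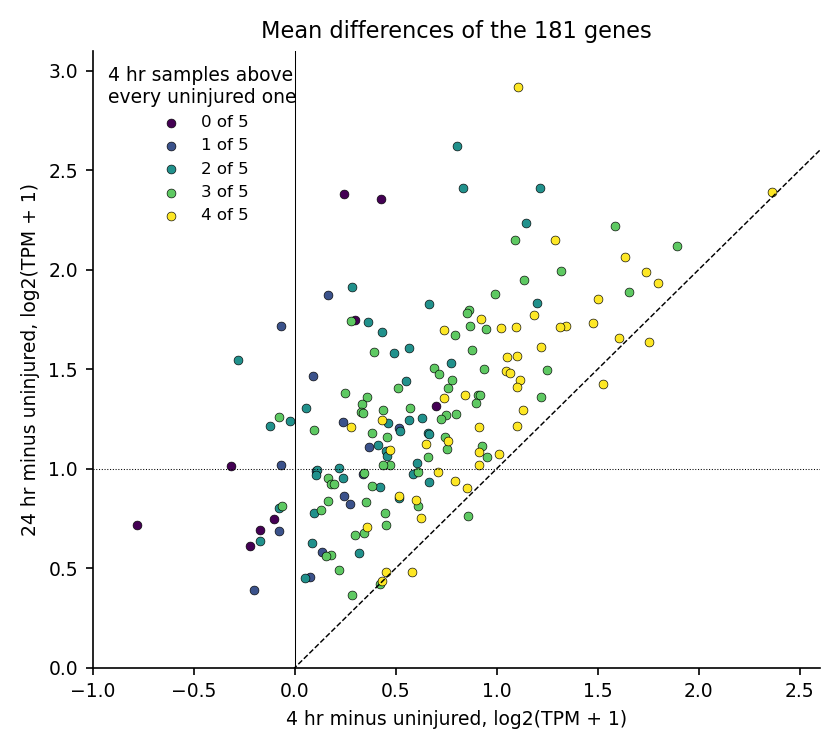
Mean difference from uninjured samples at 4 hr (x) and at 24 hr (y) on the log2(TPM + 1) scale for each of the 181 genes, coloured by the number of 4 hr samples, out of 5, that exceeded all uninjured ones; the dashed line marks equal differences and the dotted line a difference of 1. The points of 165 genes lie right of 0, and those of 176 genes lie above the dashed line.

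*CG11425* had the largest difference of the 181 genes. Its RefSeq synonyms LPP-like and WUN-like place it with the lipid phosphate phosphatases, membrane enzymes that remove phosphate from lipids and that include the Wunen proteins. *CG11425* had 0.3, 0.14, 0, 0.22 and 0 TPM in uninjured samples, 1.03, 3.63, 4.41, 0.63 and 0 TPM at 4 hr and 14.8, 2.64, 9.71, 6.83 and 8.21 TPM at 24 hr (replicates 1 to 5 in each group). Every 24 hr value was above every uninjured value, but the lowest value at 24 hr lay among those of 4 hr. The mean was 8.43 ± 4.41 TPM at 24 hr, against 0.13 ± 0.13 TPM in uninjured samples (SD, n = 5), a log2 difference of 2.92 ± 0.46 (SE). *CG11425*, at 3L:22474795-22475792 in the dm6 annotation, has a single exon and shares no exonic base with another gene.

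Several other genes near the top were almost silent in uninjured astrocytes. *CG8526* had 0.06, 0, 1.83, 1.25 and 0.19 TPM in uninjured samples, 5.93, 5.49, 0.07, 1.56 and 0.06 TPM at 4 hr and 8.05, 12.3, 11.5, 6.41 and 5.3 TPM at 24 hr. At 4 hr samples 1 and 2 of *CG8526* reached the lower of the 24 hr values, and the others stayed within the uninjured range. *CG13151* had 0, 0.06, 0, 0 and 0 TPM in uninjured samples, 1.9, 2.86, 3.38, 0 and 0.87 TPM at 4 hr and 8.19, 8.43, 1.28, 2.92 and 1.37 TPM at 24 hr. *CG3520* had 1.18, 0.22, 1.49, 0.99 and 0.05 TPM in uninjured samples, 2.93, 5.35, 4.37, 0.84 and 1.48 TPM at 4 hr and 10.4, 10.5, 6.02, 5.57 and 2.95 TPM at 24 hr. Both genes were high in 24 hr samples 1 and 2 and were already above the uninjured range in most samples at 4 hr. The log2 difference at 24 hr was 2.62 ± 0.53 for *CG8526*, 2.15 ± 0.46 for *CG13151* and 2.15 ± 0.41 for *CG3520* (SE), and all 3 were called. *CG10151*, *CG3104*, *CG8939*, *CG14695*, *CG18547*, *CG44004*, *CG11417* and *CG11695*, with differences of 2.12 to 2.41, were not called, with standard errors of 0.54 to 0.68. *CG44004* was listed at 0 in 4 of 5 uninjured samples and *CG10151* in 3 of 5.

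The remaining calls fell on genes of very different abundance. At the low end *CG7231*, *CG30496* and *CG15071* had means of 3.77, 3.07 and 3.48 TPM at 24 hr, and at the high end *CG16953* and *CG5888* had 258 and 300.4 TPM. *CG5888* had 115, 120.4, 138, 116 and 147 TPM in uninjured samples, 186, 175, 154, 153 and 113 TPM at 4 hr and 332, 269.6, 403, 249.7 and 248 TPM at 24 hr. At 24 hr all samples were far above both other groups, and at 4 hr all but sample 5 were slightly above the uninjured range. The mean of *CG5888* was 300.4 ± 66.6 TPM at 24 hr, against 127 ± 14.1 TPM in uninjured samples (SD, n = 5), a log2 difference of 1.21 ± 0.18 (SE). *CG14712* had 18.3, 20.3, 34.2, 29.6 and 32.1 TPM in uninjured samples, 77.2, 77.6, 63.1, 31.6 and 42.2 TPM at 4 hr and 96.4, 102, 86.2, 55.8 and 51.1 TPM at 24 hr. *CG16953* had 71.6, 76.1, 152, 132 and 79.5 TPM in uninjured samples, 239, 258, 190.3, 120.3 and 141 TPM at 4 hr and 333, 328, 290.4, 174 and 164 TPM at 24 hr. In both, samples 4 and 5 at 24 hr were the lowest of their group, and at 4 hr samples 1 to 3, and in *CG14712* sample 5, were above the uninjured range. The other called genes were *CG13877*, *CG11123*, *CG6356*, *CG10959*, *CG9386*, *CG14043*, *CG31195*, *CG8613* and *CG7739*. These calls, and the other genes named here for how many samples lay above a group, were picked after their values were seen.

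**Figure D3:**
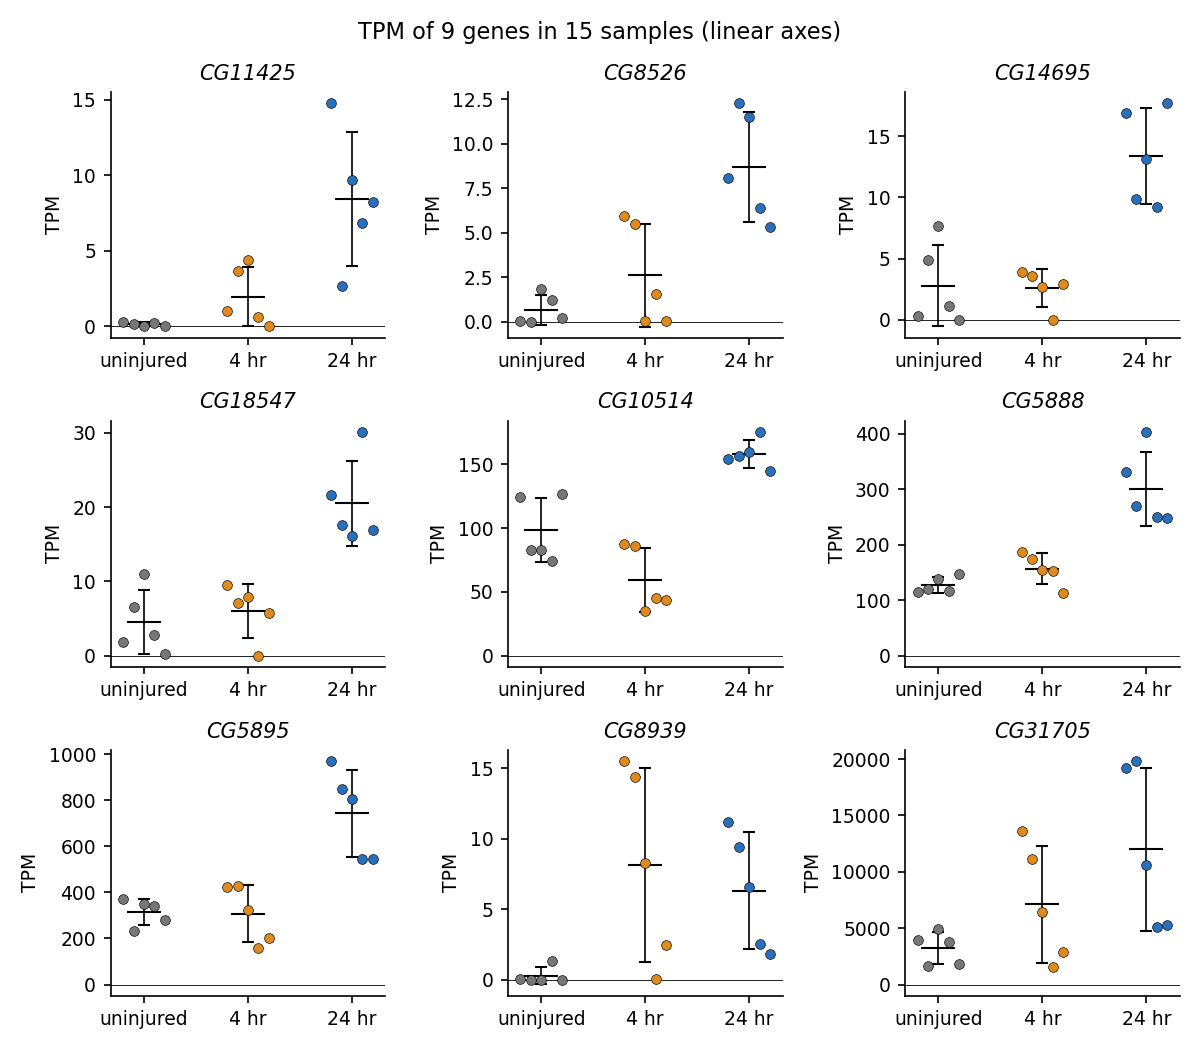
TPM of 9 of the 181 genes in 5 uninjured, 5 4 hr and 5 24 hr samples on linear axes; points are samples in replicate order from left to right, and bars are the mean with 1 SD. The 24 hr points lie above all other points for CG14695, CG18547, CG10514, CG5888 and CG5895, whereas for CG8939 and CG31705 the first samples at 4 hr reach the level at 24 hr.

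The condition on 4 hr was met in different ways. At 4 hr, 0 of 5 samples were above every uninjured sample in 9 genes, 1 in 15 genes and 2 in 41 genes. The number was 3 in 68 genes and 4 in 48 genes. Of the 8101 genes tested, 2734 had 0 such samples, 1293 had 1, 1281 had 2, 1345 had 3 and 745 had 4. All 5 were above in 703 genes, a class that the rule leaves out of the 181 genes. In those 48 genes a single 4 hr sample kept the gene out of the class raised at both times. Of all genes tested, 9.2% had 4 such samples at 4 hr, whatever their values at 24 hr. The samples that stayed low were mostly the same: 4 hr samples 1, 2 and 3 were above every uninjured sample in 82.3, 86.2 and 60.8% of the 181 genes, and samples 4 and 5 in 17.1 and 26.0%. Over all genes tested the shares were 45.5, 48.6 and 35.2% in samples 1 to 3, with 22.1 and 26.2% in samples 4 and 5. Sample 4 was the lowest of the 4 hr samples in 103 genes and sample 5 in 53 genes, together 86.2% of the 181 genes, against 61.9% of all genes tested. Samples 4 and 5 also had the highest mitochondrial shares at 4 hr. Without these 2 samples, a setting chosen after seeing the data, 94 of the 181 genes were raised at both times and 87 only at 24 hr. In those fits 66 of the 181 genes were called at 24 hr and 22 at 4 hr, where the fit of all samples gave 19 and 0. Calls increased over all genes tested as well, to 5.51% at 24 hr and 8.64% at 4 hr.

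**Figure D4:**
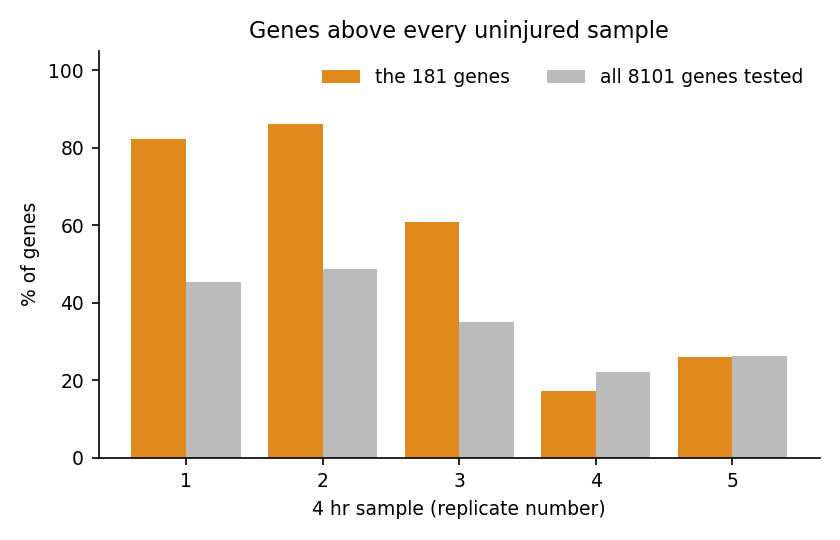
Share of genes, in %, whose TPM in a given 4 hr sample was above every uninjured sample, for the 181 genes (left bars) and all 8101 genes tested (right bars), by replicate number. The share among the 181 genes is 60.8 to 86.2% in samples 1 to 3 and 17.1 and 26.0% in samples 4 and 5.

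*CG8939* is an example of a gene raised in most samples at 4 hr. Its synonym dSpb1 points to yeast Spb1, a methyltransferase of ribosome assembly. *CG8939* had 0.05, 0, 0, 1.36 and 0 TPM in uninjured samples, 15.5, 14.4, 8.27, 0.1 and 2.48 TPM at 4 hr and 11.2, 9.45, 6.58, 2.57 and 1.86 TPM at 24 hr. In 4 hr samples 1 to 3 it was as high as at 24 hr or higher, sample 5 was above the uninjured range, and sample 4 was at the uninjured level. *CG10565* had 14.3, 16.3, 28.3, 6.77 and 8.73 TPM in uninjured samples, 95.7, 76.7, 52.5, 15.8 and 25.8 TPM at 4 hr and 85.9, 84.9, 50.2, 32.4 and 30.9 TPM at 24 hr. The synonym of *CG10565*, zuo1, points to the yeast zuotin, a chaperone that binds ribosomes. Its first 3 samples at 4 hr exceeded the uninjured range, and the others did not. The mean at 4 hr was above the mean at 24 hr in 11 of the 181 genes. The highest 4 hr value was above the highest 24 hr value in 28 genes, and in 39.3% of all genes tested.

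In 22 of the 181 genes every sample at 24 hr was also above every sample at 4 hr, which was true of 3.47% of all genes tested. Their median difference at 24 hr from uninjured samples was 1.29 (range, 0.39 to 2.38), and 9 of them had no 4 hr sample above the uninjured range. Low samples 4 and 5 were seen here as well, with 1 or the other the lowest at 24 hr in 19 of the 22 genes. The 22 genes were *CG14695*, *CG18547*, *CG10514*, *CG17026*, *CG5888*, *CG5895*, *CG3008*, *CG6766*, *CG18549*, *CG14969*, *CG4374*, *CG15071*, *CG13877*, *CG9386*, *CG7231*, *CG30496*, *CG1354*, *CG11275*, *CG14043*, *CG31195*, *CG11857* and *CG9674*.

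Of these, *CG14695* and *CG18547* had the largest differences. *CG14695* had 0.26, 4.88, 7.66, 1.15 and 0 TPM in uninjured samples, 3.89, 3.58, 2.68, 0 and 2.88 TPM at 4 hr and 16.9, 9.88, 13.1, 9.21 and 17.7 TPM at 24 hr. *CG18547* had 1.77, 6.59, 10.99, 2.83 and 0.2 TPM in uninjured samples, 9.55, 7.04, 7.89, 0 and 5.79 TPM at 4 hr and 21.7, 17.6, 16.2, 30.1 and 16.9 TPM at 24 hr. In both genes uninjured and 4 hr values overlapped over the same low range, and all values at 24 hr lay above it. The mean of *CG14695* was 13.4 ± 3.91 TPM at 24 hr, against 2.61 ± 1.54 TPM at 4 hr (SD, n = 5), and that of *CG18547* was 20.5 ± 5.78 TPM at 24 hr, against 6.05 ± 3.65 TPM at 4 hr. The log2 differences between 24 hr and 4 hr were 2.14 ± 0.57 and 1.92 ± 0.62 (SE). *CG14695* lies at 3R:10878204-10879319 and *CG18547* at 3R:11978574-11980390.

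*CG10514* differed from most of the 181 genes in that it was lower at 4 hr. *CG10514* had 124, 82.7, 83.1, 74.1 and 127 TPM in uninjured samples, 87.5, 85.5, 34.7, 44.8 and 43.6 TPM at 4 hr and 154, 157, 159, 175 and 145 TPM at 24 hr. At 24 hr the samples were close together and above all others, and at 4 hr samples 3, 4 and 5 were below every uninjured sample. The mean was 158 ± 11 TPM at 24 hr, against 59.2 ± 25.2 TPM at 4 hr (SD, n = 5), and the uninjured mean was 98.1 ± 25.1 TPM. The log2 difference was 0.72 ± 0.25 at 24 hr and -0.78 ± 0.25 at 4 hr against uninjured samples, and 1.50 ± 0.25 between 24 hr and 4 hr (SE). In 11 of the 181 genes the mean TPM at 4 hr was below that in uninjured samples, and 8 of these 11 were among the 22 genes.

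*CG5895* was the other gene called higher at 24 hr than at 4 hr. *CG5895* had 370.0, 233, 351, 341 and 281 TPM in uninjured samples, 423, 428, 324, 159 and 203 TPM at 4 hr and 969.8, 849.9, 806, 543 and 547 TPM at 24 hr. Its 4 hr samples lay on both sides of the uninjured range, with samples 1 and 2 above and samples 4 and 5 below. *CG17026* had 37.5, 13.5, 31.3, 14.9 and 34.6 TPM in uninjured samples, 27.8, 21.1, 27.9, 11.01 and 14.5 TPM at 4 hr and 55.6, 64.7, 47.7, 43.9 and 41.2 TPM at 24 hr. *CG3008* had 33.8, 11.5, 45.2, 13.1 and 13.4 TPM in uninjured samples, 37.8, 37.5, 24.6, 14.2 and 18.7 TPM at 4 hr and 103, 97, 62.9, 47.99 and 53.6 TPM at 24 hr. For *CG17026* and *CG3008* no 4 hr sample was above the uninjured range, and all values at 24 hr were above those of both other groups. *CG17026* lies within an intron of *brm*. *CG6766* had 50.2, 50.2, 56.1, 30.9 and 74.1 TPM in uninjured samples, 42.3, 59.6, 44.5, 40.8 and 49.4 TPM at 4 hr and 84.7, 81.3, 100.2, 76.3 and 85.2 TPM at 24 hr. *CG14969* had 85.4, 75.6, 119.7, 84.2 and 77.1 TPM in uninjured samples, 73.9, 111, 66.2, 78.03 and 65.01 TPM at 4 hr and 139, 121, 163, 132 and 155 TPM at 24 hr. In *CG6766* and *CG14969* the uninjured and 4 hr values overlapped, and the lowest value at 24 hr was just above the highest uninjured value.

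The 181 genes covered a wide range of abundance. The mean TPM at 24 hr was under 10 in 49 genes, 10 to 100 in 107 genes and at least 100 in 25 genes. Its median was 21.8 TPM, against 13.4 TPM over all CG genes tested. Together the 181 genes made up 0.95 to 1.70% of TPM in uninjured samples, 0.82 to 3.67% at 4 hr and 1.95 to 5.10% at 24 hr, and 54.4 to 74.0% of their sum at 24 hr came from *CG31705* and *CG9394* alone. *CG31705* had 3930.1, 1644, 4932, 3802 and 1849.8 TPM in uninjured samples, 13607, 11160.4, 6450.2, 1517 and 2885 TPM at 4 hr and 19175, 19819, 10633, 5089 and 5242 TPM at 24 hr. *CG9394* had 5514, 3099.5, 5551, 4018 and 2661 TPM in uninjured samples, 13106, 10499, 6004, 1948 and 2869 TPM at 4 hr and 16119, 17923, 9885, 5651 and 5605 TPM at 24 hr. In both genes the samples took nearly the same order: samples 1 and 2 were highest at each injury time, and 4 hr samples 4 and 5 lay within or below the uninjured range. Neither was called, with log2 differences of 1.78 ± 0.56 and 1.3 ± 0.48 (SE) at 24 hr. The next in abundance were *CG2852*, *CG15784*, *CG5758*, *CG5895*, *CG17841* and *CG31706*, with means of 997, 850.2, 847, 743, 578 and 313 TPM at 24 hr.

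At the other end, 3 genes were listed at 0 in every uninjured sample and 24 in at least 1 of them. *CG13877* had 0 in all 5 TPM in uninjured samples, 0, 0, 0, 0 and 0.78 TPM at 4 hr and 1.48, 3.66, 1.33, 1.24 and 9.87 TPM at 24 hr. At 24 hr *CG13877* was led by sample 5, and at 4 hr it was above 0 in 1 sample alone. The exons of *CG13877* lie to 93.2% on exons of *pyx* on the other strand, and the sources used here do not say that reads were counted by strand, so the reads of these genes cannot be told apart. *CG8072* had 0 in all 5 TPM in uninjured samples, 3.03, 0.47, 3.34, 0 and 0 TPM at 4 hr and 3.03, 2.49, 2.94, 1.01 and 0.63 TPM at 24 hr. *CG9961* had 0 in all 5 TPM in uninjured samples, 0.13, 3.83, 3.54, 0 and 0 TPM at 4 hr and 2.48, 2.54, 1.81, 0.24 and 0.11 TPM at 24 hr. *CG8072* and *CG9961* were above 0 in 4 hr samples 1 to 3 and at 0 in samples 4 and 5, and their lowest values at 24 hr were those of samples 4 and 5.

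Synonyms of 24 of the 181 genes in the RefSeq table (matched by gene symbol) were used to give a role, and synonyms of other genes were not. The 24 genes were picked and grouped by role after their values were seen, and the groups are small. For 6 genes that handle RNA or work at the ribosome, the median difference at 24 hr was 1.86 (range, 0.93 to 2.39), and 0 were called. Besides *CG8939* and *CG10565* they were *CG5800* (DmRH14) and *CG6418* (DmRH27), RNA helicases by their synonyms, *CG10333* (DmPrp28), whose yeast relative Prp28 unwinds RNA in the spliceosome, and *CG4622* (ZCCHC8), whose human relative belongs to a complex that directs nuclear RNA to the exosome. *CG5800* had 0.99, 1.07, 3.79, 1.89 and 4.86 TPM in uninjured samples, 16.4, 12.3, 7.9, 3.48 and 2.5 TPM at 4 hr and 15.6, 16.7, 13.7, 5.55 and 10.8 TPM at 24 hr. For *CG5800*, 4 hr sample 1 was at the level of 24 hr, samples 2 and 3 were above the uninjured range, and samples 4 and 5 were within it. The mean of *CG10333* was 6.32 ± 2.73 TPM at 24 hr, against 1.196 ± 1.19 TPM in uninjured samples, and that of *CG6418* was 26.8 ± 9.18 TPM at 24 hr, against 13.1 ± 3.29 TPM in uninjured samples (SD, n = 5). The exons of *CG4622* overlap those of *ITP* and other genes on the other strand over 26.6% of their length.

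For 6 genes of lipids and membrane traffic, the median difference was 1.69 (range, 0.82 to 2.92), and *CG11425* alone was called. *CG8176* (FCHo), a relative of the proteins that start clathrin-coated pits in mammals, averaged 186 ± 49.6 TPM at 24 hr, against 103 ± 15.8 TPM in uninjured samples (SD, n = 5). *CG8243* (SMAP), which shares its synonym with GTPase-activating proteins of the small GTPase Arf, averaged 16.7 ± 8.26 TPM at 24 hr, against 3.91 ± 1.84 TPM in uninjured samples. *CG5608* (Vac14), whose yeast relative holds the lipid kinase of the vacuole in its complex, averaged 10.1 ± 2.26 TPM at 24 hr, against 4.96 ± 1.35 TPM in uninjured samples. The others were *CG14411* (MTMR10/11/12, of the myotubularin-related family), with a difference of 1.65 ± 0.55, and *CG17597* (SCP2, a sterol carrier protein by its synonym), with 1.72 ± 0.41 (SE). In *CG5608*, *CG14411* and *CG17597*, as in *CG11425*, 4 of 5 samples at 4 hr were already above every uninjured sample.

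For 4 genes of transport and the cell surface, the median difference was 0.85 (range, 0.61 to 1.74). *CG6356*, whose synonym OCTN2 is that of a mammalian carnitine transporter, was called. *CG6356* had 6.78, 4.94, 3.5, 6.97 and 5.77 TPM in uninjured samples, 7.33, 13.2, 7.68, 4.83 and 3.96 TPM at 4 hr and 44.1, 23.5, 17.5, 8.73 and 22.6 TPM at 24 hr. At 24 hr sample 1 was highest and sample 4 lowest, and the 4 hr values lay within or shortly above the uninjured range except in sample 2. *CG18549* (MFSD11, of the major facilitator family) averaged 76.3 ± 11.7 TPM at 24 hr, against 49.97 ± 10.3 TPM in uninjured samples (SD, n = 5) and had no 4 hr sample above the uninjured range. *CG7509* (tartan/capricious-like, after a pair of leucine-rich repeat proteins of the fly cell surface) averaged 178 ± 27.2 TPM at 24 hr, against 110.3 ± 17.03 TPM in uninjured samples. *CG42613* (dLev-10, after a worm protein that gathers acetylcholine receptors) averaged 113 ± 44.4 TPM at 24 hr, against 54.6 ± 17.5 TPM in uninjured samples, but 63.2% of its exonic length is shared with *CG43732* on the same strand, and reads there cannot be assigned to either.

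For 8 genes of protein handling and other enzymes, the median difference was 1.16 (range, 0.48 to 1.597). *CG1317* (Teb4, a ubiquitin ligase of the endoplasmic reticulum in mammals) averaged 66.2 ± 31.4 TPM at 24 hr, against 24.03 ± 3.99 TPM in uninjured samples (SD, n = 5). *CG8728* (alpha-MPP, a subunit of the peptidase that trims proteins entering mitochondria) averaged 19.6 ± 10.1 TPM at 24 hr, against 5.596 ± 2.73 TPM in uninjured samples. *CG9386* (METTL19), which bears the name of a family of methyltransferases, was the called gene of this group. *CG9386* had 3.35, 5.33, 4.05, 4.54 and 6.05 TPM in uninjured samples, 5.91, 11.99, 11.6, 9.77 and 5.67 TPM at 4 hr and 14.4, 17.4, 14.8, 12.03 and 12.9 TPM at 24 hr. All its 24 hr values were above all 4 hr values, and 4 hr samples 2, 3 and 4 were above the uninjured range. The rest were *CG31650* (RCN2, a calcium-binding protein of the secretory pathway), *CG8668* (dbeta3GnT, a glycosyltransferase), *CG33981* (APC13, a subunit of the anaphase-promoting complex), *CG8032* (PAOX, a polyamine oxidase) and *CG5339* (METTL9), with differences of 0.99, 1.17, 1.14, 1.06 and 0.48. *CG33981* lies entirely on exons of *fab1* on the same strand, and 39.4% of the exonic length of *CG31650* is covered by genes on the other strand.

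All 181 genes were protein coding in the dm6 annotation. Their median coding length was 1743 bases, against 1128 bases over all CG genes tested, 1146 bases over the 52 CG genes raised at both times and 1209 bases over the 129 raised only at 4 hr. The median exonic length was 2410 bases, against 1758 bases over all CG genes tested, and the median number of separate exonic stretches was 4, against 3. TPM divides by gene length, and the part of length in the choice of the genes was not tested. Exons of 74 genes (40.9%) overlapped those of another gene, against 47.0% of the CG genes tested. An intron of another gene held 14 genes (7.73%), against 8.48%. They lay on X (30 genes), 2L (34), 2R (44), 3L (27) and 3R (46).

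Few of the genes were neighbours. *CG31705* and *CG31706* follow each other on the same strand of 2L, 832 bases apart, at 2L:11523021-11528205 and 2L:11529038-11531052. *CG31706* had 169.7, 111, 137, 139.8 and 116 TPM in uninjured samples, 267, 182, 181, 77.4 and 85.99 TPM at 4 hr and 419, 355, 298, 239.5 and 253 TPM at 24 hr. The samples of *CG31706* were ordered much like those of *CG31705*, with a smaller spread. *CG32686* lies inside *CG17841* on the other strand of X, *CG8892* and *CG34126* lie 21 bases apart on 2L, *CG10543* and *CG30291* lie 14 bases apart on 2R, and *CG9485* and *CG30394* are separated by 1 gene on 2R. *CG32686* had 10.7, 10.3, 12.4, 11.03 and 8.55 TPM in uninjured samples, 14.7, 10.5, 12.5, 3.35 and 9.53 TPM at 4 hr and 20.6, 16.1, 16.2, 17.8 and 14.5 TPM at 24 hr. *CG17841* had 441, 372, 469, 509.7 and 449 TPM in uninjured samples, 689.9, 655, 572, 382 and 482 TPM at 4 hr and 578, 714, 531, 536 and 532 TPM at 24 hr. Values of *CG32686* at 4 hr were within or near the uninjured range except in sample 4, which was far below it, whereas *CG17841* was above it at 4 hr in samples 1 to 3 by as much as at 24 hr. For *CG10543* and *CG30291*, the mean differences at 24 hr were 0.80 ± 0.32 and 0.42 ± 0.24, for *CG8892* and *CG34126* 0.91 ± 0.28 and 0.57 ± 0.32, and for *CG9485* and *CG30394* 1.41 ± 0.51 and 0.91 ± 0.32 (SE).

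The limits of the rule cut through a continuous range. In 57 of the 181 genes the lowest 24 hr value exceeded the highest uninjured value by less than 0.1 on the log2(TPM + 1) scale, and in 5 by at least 1. Just inside were *CG6013*, *CG7509*, *CG17544*, *CG30291* and *CG10602*. *CG6013* had 64.2, 69.9, 84.5, 55.1 and 76.1 TPM in uninjured samples, 114, 87.8, 127, 57.5 and 99.1 TPM at 4 hr and 87.7, 101, 93.6, 84.5 and 104 TPM at 24 hr. In *CG6013* the lowest 24 hr value and the highest uninjured value are almost equal, and 4 of 5 values at 4 hr are above both. Just outside were *CG42615*, *CG5665*, *CG14963*, *CG12316* and *CG4716*. *CG42615* had 0 in all 5 TPM in uninjured samples, 0, 1.95, 6.83, 0 and 0 TPM at 4 hr and 4.08, 3.72, 2.55, 0 and 3.56 TPM at 24 hr. This gene missed the rule through a single 24 hr sample at 0. On the side of the 4 hr samples, *CG31676*, *CG9628* and *CG32473* missed the rule most narrowly, as their lowest 4 hr values of 273, 6.29 and 21.98 TPM were above their highest uninjured values of 272, 6.17 and 21.3 TPM.

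Genes with other names met the rule as well. They were 556 of 5566 (9.99%), against 181 of 2535 CG genes (7.14%) and 9.1% of all genes tested. Their number was 862 and 823 without 24 hr samples 4 and 5. The largest differences among them were those of *PGRP-SA*, *GstT4*, *Tsf1*, *MFS9*, *Gar1*, *Ndc80*, *CCT7*, *Ssrp*, *bnb* and *Akap200*, from 4.10 in *PGRP-SA* to 2.85 in *Akap200*, and 66 of the 556 were called at 24 hr. Their median differences were 1.15 at 24 hr and 0.56 at 4 hr, and those of the 181 genes were 1.24 and 0.57. The 52 CG genes raised at both times had median differences of 1.28 at 24 hr and 1.74 at 4 hr, and the 129 CG genes raised only at 4 hr had 0.64 at 24 hr and 1.64 at 4 hr. These values follow from how each class was chosen. Of all genes tested, 12.5% were above every uninjured sample in all samples at 24 hr, and 8.68% in all samples at 4 hr.

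How many genes met the rule depended on the scale of the samples. When each sample was divided by a median-of-ratios size factor, 57 CG genes met it, of which 56 were among the 181 genes. After quantile normalization 41 did (39 of the 181 genes), and after removal of the mitochondrial genome and rescaling 85 did (82 of the 181 genes). In these settings the median difference at 24 hr was 0.80, 0.68 and 0.91 over the 181 genes and 0.10, -0.02 and 0.19 over all genes tested. The median of the 181 genes exceeded that of all genes by 0.70, 0.70 and 0.72 in these settings, and by 0.73 in TPM as deposited. A scaling acts on all genes of a sample and the 181 genes were chosen by their values, so this excess is no test. With the mitochondrial share as a covariate the excess was 0.39. Under the 3 scalings the difference at 24 hr stayed above 0 in 174, 176 and 179 of the 181 genes. The rule was met under all 3 by 33 of the 181 genes, among them 12 of the 19 called genes and 10 of the 22 genes above every 4 hr sample. *CG11425* was called under each of the 3 scalings, when 1, 1 and 3 of the 181 genes were called, along with 0.617, 0.555 and 0.915% of all genes tested. The count also rested on single samples: 281 CG genes met the rule without uninjured sample 3, and 301 and 277 without 24 hr samples 4 and 5.

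**Figure D5:**
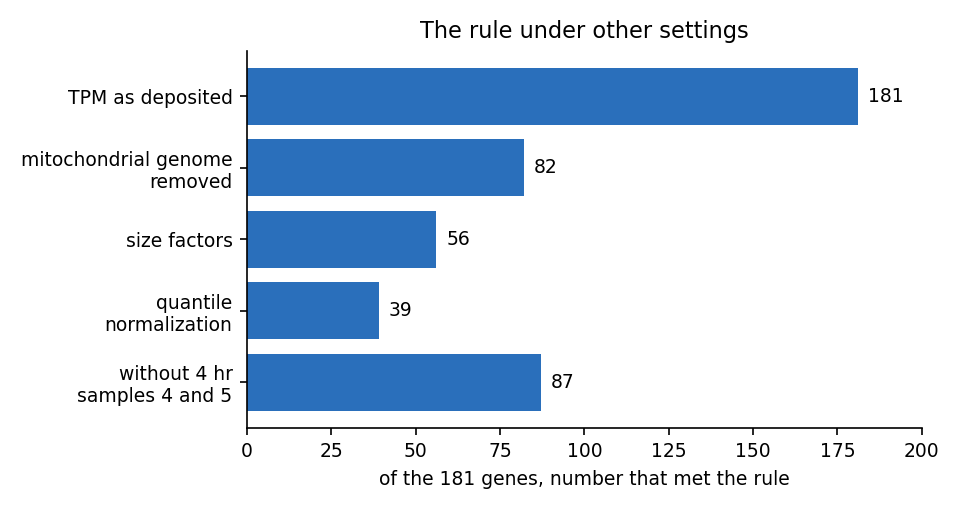
Number of the 181 genes (x) that met the rule with TPM as deposited, under 3 other scalings of the samples and without 4 hr samples 4 and 5. The bars end at 181, 82, 56, 39 and 87 genes.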

How the data were processed

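Sorted astrocytes were profiled by Smart-seq2 RNA-seq, a full-length cDNA protocol. The authors deposited TPM values for 17509 genes in 15 samples, all of which were used. The study names Hisat2, HTSeq and dm6, and the submitters' processing notes also list STAR 2.6.0a and RSEM 1.3.1. The tool that gave TPM is not given in the sources used here. Counts were not used here, so the depth behind a value is unknown, no counting interval is given, and precision comes from the replicates. The samples are called biological replicates by the study. Strand counting is not stated.

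The 8101 genes that reached a TPM of 1 in 5 or more samples were put on the log2(TPM + 1) scale and fitted as 3 groups with limma 3.58.1 in R 4.3.3, with a variance trend and Benjamini-Hochberg adjustment over all genes tested. Calls needed an adjusted p below 0.01 and a log2 difference of at least 1. Single values of samples were compared with exact two-sided permutation tests. The fit was tested on simulated data. Figures and tables used Python 3.11.15, pandas 2.3.3, NumPy 2.4.6 and matplotlib 3.10.9. Positions come from the dm6 annotation (17398 genes matched) and synonyms from RefSeq.

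The members and lists were chosen with earlier results of these data known. Genes named in the text are the 12 with the largest differences at 24 hr, the 8 most abundant, the 5 farthest above 4 hr, those at 0 in uninjured samples, those at the limits of the rule, neighbours, the 10 other genes with the largest differences and those with a synonym, and others where the text says so. The alternatives changed the pseudocount (0.1), the filter (none, or a TPM of 5), the scaling (3 other ways) or the model: 2-group fits, no variance trend, sample weights, a replicate block, an adjusted p below 0.05, and the mitochondrial share as a covariate. Each sample was left out in turn and, as a setting added after seeing the data, injury samples 4 and 5 together. Protein and promoter sequences were not analysed here.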

Additional observations from a re-analysis of the deposited data

Results flagged for a closer look

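Among 111 groups of 5 samples, formed from the 35 genes named by rule and the summed and median levels of the 181 genes, 7 held a sample far from the others (a gap to the nearest sample above 0.71 of the range of the group). Chance flags about 1 group in 20. In uninjured samples these were *CG10151* in sample 5 (0.35 TPM), *CG8939* in sample 4 (1.36 TPM), *CG44004* in sample 4 (1.73 TPM) and *CG13151* in sample 2 (0.06 TPM), all genes at or near 0 in the other uninjured samples. At 4 hr it was *CG13877* in sample 5 (0.78 TPM), which was listed at 0 in the other samples. At 24 hr they were *CG13877* in sample 5 (9.87 TPM) and *CG17841* in sample 2 (713.8 TPM).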

How the results depend on the processing

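With all samples, 181 CG genes met the rule. This was 57 with size factors, 41 after quantile normalization, 85 with the mitochondrial genome removed and 157 to 301 when 1 sample was left out. It was 87 without 4 hr samples 4 and 5, and 352 without samples 4 and 5 of both injury groups, of which 87 were among the 181 genes. For genes with other names the count was 556 in the deposited TPM, 160 with size factors, 156 after quantile normalization, 254 with the mitochondrial genome removed, 459 to 862 with 1 sample left out, and 223 and 915 without samples 4 and 5 at 4 hr and in both injury groups. Of the 181 genes, 128 met the rule in each of 15 settings with 1 sample left out.

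Of the 181 genes, 19 were called higher at 24 hr than in uninjured samples, with 2.26% of all genes tested. The percentages below are the shares of all genes tested in each setting. The count was 7 without a filter (0.754%), 1 with size factors (0.617%) and 1 after quantile normalization (0.555%). It was 3 with the mitochondrial genome removed (0.915%), 31 when only these groups were fitted (2.85%) and 69 with sample weights (7.1%). It was 0 with the mitochondrial share as a covariate (0.333%) and 108 at an adjusted p below 0.05 (13.3%). With 1 sample left out it was 2 to 41 (0.839 to 3.44%). Without samples 4 and 5 at 4 hr and in both injury groups it was 66 (5.51%) and 118 (19.2%). The count at 4 hr was 0 (5.76%), with 14 for sample weights (7.78%) and 15 at an adjusted p below 0.05 (9.41%). With 1 sample left out it was 0 to 10 (4.27 to 6.8%), and without samples 4 and 5 as above 22 (8.64%) and 34 (11.7%). Between 24 hr and 4 hr it was 2 (0.42%), with 1 without a filter (0.149%) and 4 after quantile normalization (0.518%). It was 5 with the mitochondrial genome removed (0.569%), 1 when only these groups were fitted (0.37%) and 1 without a variance trend (0.321%). It was 6 with sample weights (0.815%), 7 with the covariate (1.22%) and 13 at an adjusted p below 0.05 (1.35%). With 1 sample left out it was 1 to 5 (0.136 to 0.494%), and without samples 4 and 5 as above 0 (0.0988%) and 1 (0.0864%). The cause of these changes was not tested.

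With the replicate number as a block, 61 of the 181 genes were called at 24 hr, 4 at 4 hr and 7 between 24 hr and 4 hr, along with 7.21, 6.75 and 0.815% of all genes tested. The numbers come from the sample titles, and the deposited column names number the 24 hr samples and most uninjured samples otherwise. The numbers do not pair the samples by any label. The deviations of same-numbered 24 hr and 4 hr samples had correlations of 0.54, 0.40, -0.02, 0.36 and 0.41 for numbers 1 to 5, those with uninjured samples were -0.04 to 0.21, and 6 of 15 samples correlated best with a sample of their own number.

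The median difference at 24 hr of 1.24 became 0.80 with size factors and 0.68 after quantile normalization. The difference at 24 hr turned negative for *CG17841* (-0.14 with size factors and -0.046 with the mitochondrial genome removed), *CG6013* (-0.062 with size factors), *CG30291* (-0.046 with size factors and -0.16 after quantile normalization) and *CG34126* (-0.044 after quantile normalization). Of 700 values of the 35 genes named by rule under alternatives, 60 moved by more than the spread between replicates and 6 reversed. TPM does not show depth, so how far low values such as those under 1 TPM rest on few reads is unknown.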
